A study of Papio papio with 23 samples.

Results

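Lysosomal genes were followed in the blood of baboons before and after gamma irradiation, as 34 genes that code for proteins of the lysosome: cathepsins and other proteases, glycosidases and sulfatases, enzymes and activators of lipid breakdown, and membrane or associated proteins. The rule names the genes and sets no threshold on a measured value, but the list was drawn up with earlier results of these data known. All 34 were on the array, among 36337 gene names, and 32 passed the filter on dim probes that left 21130 genes for testing. GUSB, the lysosomal beta-glucuronidase, and LIPA, the acid lipase of the lysosome, were well above background on 0 of 23 arrays, so neither has a measured level here. Of the 32 tested members, 31 were well above background on all 23 arrays, and the remaining member, CTSS, was so on 13.

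The study hybridised RNA from peripheral whole blood of adult male Papio papio baboons, with an average age of 8.1 ± 3.3 years, to human Agilent single-colour arrays, with 1 array per sample. Group H0 held 5 baboons before irradiation. The remaining groups carry the grade of the blood-forming (hematological) form of acute radiation sickness, abbreviated HARS. They held 4 baboons of category H1-2 and 5 of the more severe category H2-3, on day 1 and on day 2 after exposure. That the same animals were sampled on both days is read from the baboon numbers of the titles alone. All irradiated baboons received gamma rays of a 60Co source under anaesthesia, to the total or to part of the body, at an equivalent whole-body dose of 2.5 or 5 Gy. The labels give dose and field for the study and not per animal, so the categories may differ in either and dose was not analysed here. The labels do not say whether the H0 animals were among those irradiated later. The p-values below measure the spread between these samples. Probes designed for human transcripts were hybridised with baboon RNA, so mismatches between the species may weaken hybridisation, and no probe's level is set against another's.

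Lysosomes are acidic organelles in which hydrolases break down proteins, sugar chains and lipids that reach them by endocytosis, phagocytosis or autophagy. Most of these enzymes are made in the endoplasmic reticulum, tagged with mannose 6-phosphate and carried to the organelle by sorting receptors, while a proton pump keeps the lumen acidic and heavily glycosylated membrane proteins line its inside. In blood, phagocytes (neutrophils and monocytes) are rich in lysosomes or in granules related to them, and resting lymphocytes have few.

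Lysosomal members were higher than in H0 in irradiated blood, and none was called lower, beside 4.42%, 0%, 13.5% and 4.48% of all genes called lower in H1-2 on days 1 and 2 and H2-3 on days 1 and 2. A level here is log2 of the processed signal minus the 75th percentile of its array, so a difference of 1 is a 2-fold change, and a change is called at a limma adjusted p under 0.05 over all 21130 genes. In H2-3 on day 1, 20 of 32 members rose, beside 15% of all genes called higher, and the median member change was 1.11 against 0.14 over all genes. On day 2 of H2-3, 20 of 32 rose as well, beside 10.3% of all genes, with a median of 1.09 against -0.03. In H1-2 on day 1, 11 of 32 rose, beside 4.18% of all genes, with a median of 0.74 against 0.09. None was called in H1-2 on day 2, where 0% of all genes were called, although 8 members had an unadjusted p under 0.05, beside 10.5% of all genes, and the median was 0.50 against -0.01. Called in 3 of these 4 comparisons were 11 members, in 2 of them 7, in 1 of them 4 and in none 10. Differences were positive for 30, 28, 31 and 31 of 32 members in H1-2 on days 1 and 2 and H2-3 on days 1 and 2, beside 56.6%, 49.1%, 59.4% and 48.2% of all genes. The 4 comparisons share the H0 arrays. The choice of scale moved all genes together: with the percentile taken over probes detected on all arrays, the median over all genes in H2-3 was -0.05 on day 1 and -0.18 on day 2, and the members called were 11, 0, 18 and 18 (in the order H1-2 day 1, day 2, H2-3 day 1, day 2), with medians of 0.62, 0.45, 0.92 and 0.94. The split of all called genes moved with it, from 3161 of 6007 higher to 2051 of 5887 in H2-3 on day 1, from 883 of 1816 to 751 of 2320 in H1-2 on day 1, and from 2176 of 3123 to 1567 of 3597 in H2-3 on day 2. Every array of the irradiated group lay above every H0 array for 18 members in H2-3 on day 1, 14 in H2-3 on day 2, 10 in H1-2 on day 1 and 2 in H1-2 on day 2. Over all genes the same held for 9.57%, 5.66%, 4.99% and 0.823%.

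**Figure D1:**
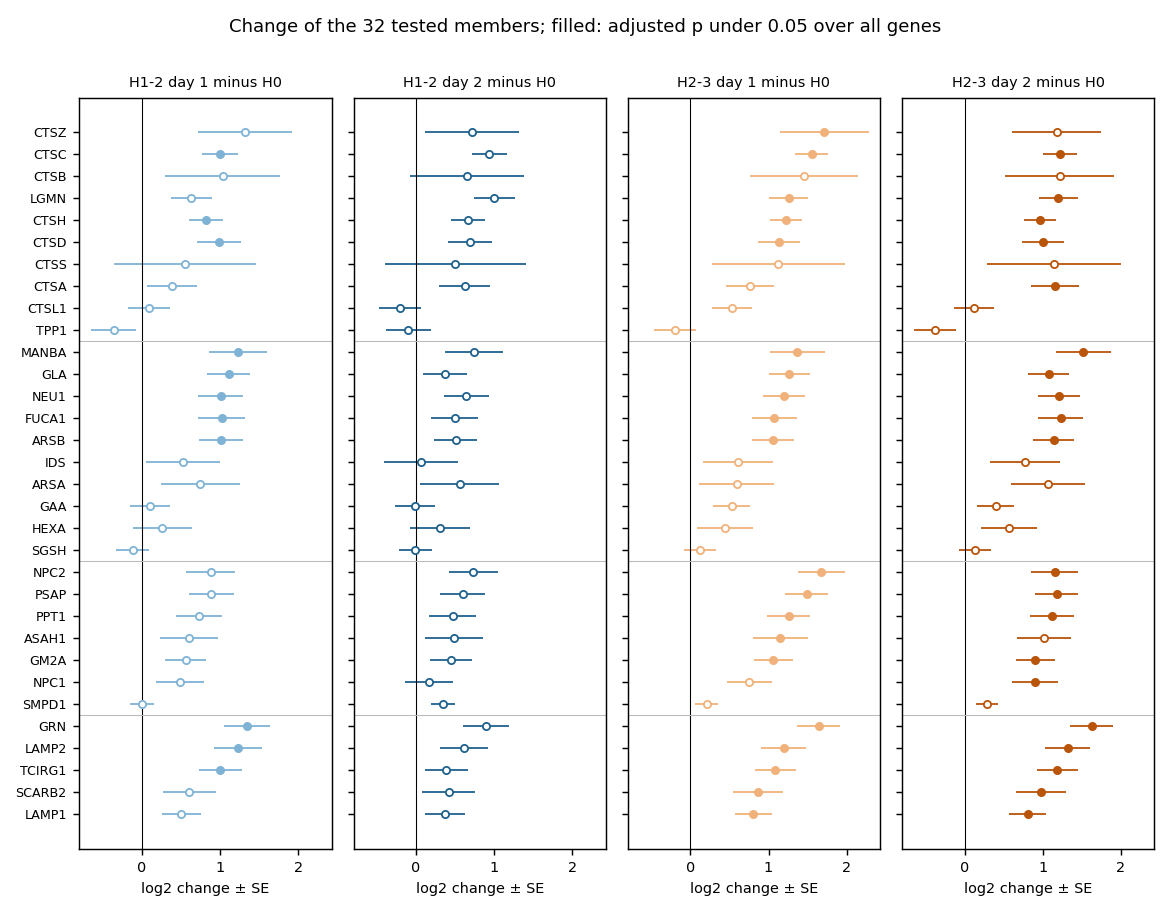
Log2 change against H0 (x axis, ± SE) of the 32 tested members (y axis, grouped by role with grey lines), in 4 panels for the 2 categories and 2 days. Filled points have an adjusted p under 0.05 over all genes: 11, 0, 20 and 20 members from left to right, all to the right of 0.

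These counts rested on few arrays and on how scans were laid out. The H0 arrays lay on slides 1 to 3 and were read on scan days 1 (baboons 1 and 2) and 2, all day 1 arrays on scan day 2, and all day 2 arrays on scan day 3, so a day 2 change against H0 and the scan day cannot be told apart. For H1-2 on day 1 the count of 11 became 0 with scan day or slide as a block, and 0 without both H0 arrays of scan day 1, while the median change among arrays of scan day 2 alone was still 0.62, positive for 29 of 32. It became 2 without H0 baboon 1, 2 without H0 baboon 5, 7 without H0 baboon 4, 0 without H1-2 baboon 1, 1 without baboon 2 and 5 without baboon 4. For H2-3 on day 1 the count of 20 was 14 with scan day as a block, and the median among arrays of scan day 2 was 0.95, positive for 32 of 32. With slide as a block it was 2, CTSC and CTSH; there the contrast with H0 rests on slide 3 alone, which held 1 array of each group and a median of 1.23, positive for 32 of 32. For H2-3 on day 2 the count of 20 became 13 without H0 baboon 1, 11 without H2-3 baboon 4, 3 (GRN, CTSC and CTSH) without both H0 arrays of scan day 1, and 0 with scan day as a random block.

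Among the proteases, 5 of 10 rose in H2-3 on day 1, 5 on day 2, 3 in H1-2 on day 1 and 0 on day 2. Of all genes, 15%, 10.3%, 4.18% and 0% were called higher in these comparisons. CTSC codes for cathepsin C, or dipeptidyl peptidase I, which activates the serine proteases of neutrophil and cytotoxic granules, and its change had the smallest adjusted p of any member. Its H0 levels were 0.25, 0.42, 0.91, 0.79 and 0.13 in baboons 1 to 5. In H2-3 they were 2.26, 1.66, 1.93, 1.90 and 2.51 on day 1, a change of 1.55 ± 0.21 (adjusted p = 7.44e-05) or 2.93-fold. Day 2 gave 1.77, 1.65, 1.62, 1.74 and 1.81, a change of 1.22 ± 0.21 (adjusted p = 0.00576). All 10 H2-3 arrays lay above all 5 H0 arrays, and the day 2 values were the least spread of any group. In H1-2 the levels were 1.48, 1.65, 1.00 and 1.87 on day 1 and 1.97, 1.41, 1.38 and 0.98 on day 2. These too lay above every H0 array on both days, with changes of 1.00 ± 0.23 (adjusted p = 0.016) and 0.94 ± 0.23 (adjusted p = 0.256), the second of which did not pass the test.

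The array holds 3 CTSC probes, which the files assign to 3 different transcripts, NM_001114173, NM_001814 and NM_148170 in the order printed. The first 30 of each probe's 60 bases are shown, with human build hg19 positions, because the 3 reported the same direction from separate places in the gene.
CTSC probe A_33_P3268472 (chr11:88061281-88061340, strand -): ttgttcatgcagctgggaactgtggggata
CTSC probe A_23_P1552 (chr11:88033771-88042347, strand -): agtcgaaaaatcccaaggcccaaacctgca
CTSC probe A_33_P3283480 (chr11:88054028-88054087, strand -): ggatcaactccatcttactaaccatttgat
The first, the brightest, gave the values above. In H2-3 on day 1 the second changed by 0.99 (adjusted p over all probes 0.00124) and the third by 1.03 (0.013). On day 2 the third passed the test (0.91, 0.0448) and the second did not (0.50, 0.0883). In H1-2 on day 1 their changes were 0.68 and 0.64 and neither passed (0.0529 and 0.192). Whether a probe also binds the other transcripts was not tested, and no annotation of this build was used, so its exon is not stated.

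CTSH codes for cathepsin H, an aminopeptidase. H0 levels of CTSH were 6.0, 6.93, 6.55, 6.69 and 6.09, and H2-3 levels 7.84, 7.42, 7.33, 7.90 and 7.91 on day 1 and 7.52, 7.42, 6.99, 7.56 and 7.61 on day 2. No H2-3 array reached down to the H0 range, and the changes were 1.23 ± 0.20 (adjusted p = 0.000264) and 0.97 ± 0.20 (adjusted p = 0.00866). In H1-2, CTSH was at 7.10, 7.50, 6.94 and 7.56 on day 1, a change of 0.83 ± 0.22 (adjusted p = 0.0262), and at 7.24, 7.24, 7.25 and 6.75 on day 2, where baboon 4 fell within the H0 range and the change was 0.67 (adjusted p = 0.356).

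LGMN codes for legumain, the asparaginyl endopeptidase that processes other lysosomal proteases. Its H0 levels of -1.96, -1.56, -1.49, -1.03 and -1.94 compare with -0.61, 0.08, -0.37, -1.01 and 0.21 in H2-3 on day 1 and -0.68, -0.27, -0.57, -0.39 and -0.08 on day 2. Baboons 1 to 5 of H2-3 all exceeded the H0 range, although baboon 4 on day 1 did so by 0.02 only, and the changes were 1.26 ± 0.25 (adjusted p = 0.000852) and 1.20 ± 0.25 (adjusted p = 0.00859). In H1-2 the values were -1.15, -0.23, -1.39 and -1.08 on day 1, which overlap H0, and -0.45, -0.62, -0.47 and -0.82 on day 2, which do not. Neither day passed the test, with changes of 0.63 (adjusted p = 0.121) and 1.00 (adjusted p = 0.28).

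CTSD codes for cathepsin D, the main aspartic protease of lysosomes. The H0 arrays split into 2 low values and 3 higher ones, 3.63, 4.84, 4.96, 4.92 and 3.80. On day 1 it stood at 5.57, 5.53, 5.57, 5.50 and 5.65 in H2-3 and 5.38, 5.27, 5.48 and 5.56 in H1-2, all above H0 and with little spread. These are changes of 1.13 ± 0.27 (adjusted p = 0.00346) and 0.99 ± 0.29 (adjusted p = 0.0367). By day 2 the values were 5.63, 4.99, 5.06, 5.79 and 5.68 in H2-3 (1.00 (adjusted p = 0.0207)) and 5.49, 5.72, 4.71 and 4.57 in H1-2 (0.69 (adjusted p = 0.4)), and H1-2 baboons 3 and 4 were back within the H0 range.

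Of the other proteases, CTSA (protective protein or cathepsin A, which stabilises neuraminidase and beta-galactosidase) rose in H2-3 on day 2 by 1.16 ± 0.31 (adjusted p = 0.019), and its day 1 change was 0.76 (adjusted p = 0.0657). The second CTSA probe passed on both days, with 0.82 (adjusted p over all probes 0.0496) and 0.97 (0.0392). CTSZ, the carboxypeptidase cathepsin Z, rose in H2-3 on day 1 by 1.71 ± 0.57 (adjusted p = 0.0279); its second probe changed by 0.54, with an adjusted p over all probes of 0.246. On day 2 the second CTSZ probe passed the test (1.07, 0.0373) and the first did not (1.18, 0.145), so the probes call opposite days. CTSB, CTSS, CTSL1 and TPP1 were called in no comparison. For CTSL1, which codes for cathepsin L, the changes ran from -0.21 to 0.53. CTSB and CTSS, which code for the abundant cysteine proteases cathepsin B and cathepsin S, changed by 1.45 (adjusted p = 0.125) and 1.13 (adjusted p = 0.356) in H2-3 on day 1, with standard errors of 0.69 and 0.85. Their spread followed baboon and slide and is described further on.

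TPP1 codes for tripeptidyl peptidase 1, whose loss causes a neuronal ceroid lipofuscinosis, and its 2 probes gave opposite signs. The call for this gene turns on which is read. The brighter, called the first here, stood for the gene. It read 6.67, 5.64, 5.44, 5.45 and 5.19 in H0 and 5.56, 5.45, 5.50, 5.54 and 5.34 in H2-3 on day 1, a change of -0.20 (adjusted p = 0.635), and H0 baboon 1 was its highest array. The second read 3.67, 4.10, 4.53, 4.04 and 4.01 in H0 and 5.07, 4.71, 4.81, 5.04 and 5.48 in H2-3 on day 1, with no overlap. By the second probe the changes against H0 were 0.95 (adjusted p over all probes 0.00121) in H2-3 on day 1, 0.87 (0.00993) on day 2, 0.72 (0.0349) in H1-2 on day 1 and 0.54 (0.383) on day 2. By the first they ran from -0.38 to -0.10. H0 baboon 1 was the highest of the H0 arrays by the first probe (6.67) and the lowest by the second (3.67).

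Among the glycosidases and sulfatases, 5 of 10 tested members rose in H2-3 on day 1, 5 on day 2, 5 in H1-2 on day 1 and 0 on day 2. The shares of all genes called higher were 15%, 10.3%, 4.18% and 0%. The 5 were GLA, NEU1, ARSB, MANBA and FUCA1 in each of the 3 comparisons with calls. GLA codes for alpha-galactosidase A, the enzyme missing in Fabry disease. H0 levels of GLA were 6.22, 7.28, 7.82, 6.59 and 6.39, with baboons 2 and 3 well above the rest. In H2-3 they were 8.07, 8.07, 8.09, 8.13 and 8.27 on day 1 and 7.95, 7.96, 7.41, 8.36 and 8.01 on day 2. The day 1 arrays all exceeded H0 and lay within 0.20 of each other, and 1 day 2 array fell below the highest H0 value. The changes were 1.27 ± 0.26 (adjusted p = 0.00125) and 1.08 ± 0.26 (adjusted p = 0.0136). For H1-2 the arrays read 8.41, 8.08, 7.59 and 7.79 on day 1 (1.11 (adjusted p = 0.0221)) and 7.53, 7.57, 7.03 and 6.80 on day 2 (0.37 (adjusted p = 0.621)). Each H1-2 baboon was lower on day 2 than on day 1, with a difference of -0.74 that did not pass the test (adjusted p = 0.166).

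NEU1 codes for the lysosomal sialidase. Its levels were 2.17, 3.06, 3.47, 3.07 and 2.64 in H0, 4.15, 3.88, 3.99, 3.94 and 4.44 in H2-3 on day 1 and 3.79, 3.88, 3.84, 4.56 and 4.39 on day 2. The H2-3 arrays all lay above H0, with changes of 1.20 ± 0.27 (adjusted p = 0.00242) and 1.21 ± 0.27 (adjusted p = 0.00962). H1-2 arrays read 4.21, 3.94, 3.77 and 3.64 on day 1, all above H0 (1.01 (adjusted p = 0.0351)), and 3.82, 4.38, 2.85 and 3.04 on day 2, where baboons 3 and 4 fell within the H0 range (0.64 (adjusted p = 0.436)).

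ARSB codes for arylsulfatase B, which removes sulfate from dermatan and chondroitin sulfate. The H0 arrays gave -2.04, -1.61, -0.94, -0.92 and -1.56. H2-3 arrays gave -0.09, -0.66, -0.35, -0.23 and -0.45 on day 1 and -0.16, -0.77, -0.85, 0.32 and 0.10 on day 2, all above H0. The corresponding changes were 1.06 ± 0.26 (adjusted p = 0.00485) and 1.14 ± 0.26 (adjusted p = 0.011). In H1-2 the day 1 arrays (-0.62, -0.24, -0.21 and -0.52) also lay above H0 (1.01 (adjusted p = 0.0312)). The day 2 arrays (-0.53, -0.40, -1.51 and -1.19) split, baboons 1 and 2 above H0 and baboons 3 and 4 within it (0.51 (adjusted p = 0.52)).

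MANBA codes for beta-mannosidase, which removes the mannose at the core of N-linked sugar chains. It stood at -0.96, 0.28, 0.48, 0.54 and -0.22 in H0 and rose in H2-3 to 1.04, 1.44, 0.99, 1.66 and 1.82 on day 1 and 0.69, 1.26, 0.75, 2.59 and 2.42 on day 2. Baboons 4 and 5 were the highest on both days, and all arrays exceeded H0. The changes were 1.37 ± 0.35 (adjusted p = 0.00596) and 1.52 ± 0.35 (adjusted p = 0.011). H1-2 arrays were at 1.39, 1.28, 1.07 and 1.27 on day 1 (1.23 (adjusted p = 0.0439)) and 0.85, 1.35, 0.25 and 0.62 on day 2 (0.74 (adjusted p = 0.485)), and only the day 1 arrays all exceeded H0.

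FUCA1, the tissue alpha-fucosidase, rose by 1.07 ± 0.29 (adjusted p = 0.00789) and 1.23 ± 0.29 (adjusted p = 0.0117) in H2-3 and by 1.02 ± 0.30 (adjusted p = 0.0416) in H1-2 on day 1. Of the H1-2 day 1 calls, those of FUCA1 and MANBA were each lost in 14 of 22 alternatives, that of ARSB in 12 and that of CTSD, among the proteases, in 13. GAA (acid alpha-glucosidase, which degrades glycogen), HEXA (the alpha subunit of beta-hexosaminidase), ARSA (arylsulfatase A, which acts on sulfatides), IDS (iduronate-2-sulfatase) and SGSH (N-sulfoglucosamine sulfohydrolase) were called in no comparison. Their changes against H0 in H2-3 on day 1 were 0.53, 0.44, 0.59, 0.61 and 0.13 in that order, with adjusted p from 0.1 to 0.688. ARSA was high in single animals, at 6.69 and 6.59 in H1-2 baboon 2 on days 1 and 2, where the other H1-2 arrays lay between 3.98 and 5.00. For IDS the 3 probes that passed the filter disagreed: against H0 in H2-3 on day 1 they changed by 0.61, -0.28 and -0.61, and none passed the test.

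Among the 7 tested lipid-handling members, 5 rose in H2-3 on day 1 and 5 on day 2, beside 15% and 10.3% of all genes. None passed the test in H1-2 on either day, where 4.18% and 0% of all genes were called higher. There 4 and 2 members had an unadjusted p under 0.05, beside 26.8% and 10.5% of all genes. All 7 differences were positive in each comparison with H0. NPC2 codes for the soluble protein that hands cholesterol to NPC1 in the lysosomal membrane. H0 levels of NPC2 were 5.87, 6.61, 6.19, 5.91 and 5.73. H2-3 levels were 8.11, 6.95, 7.49, 7.85 and 8.29 on day 1, a change of 1.68 ± 0.30 (adjusted p = 0.000416) or 3.19-fold, and 7.39, 6.91, 7.02, 7.38 and 7.38 on day 2, a change of 1.15 ± 0.30 (adjusted p = 0.0172). No H2-3 array overlapped H0. H1-2 arrays read 7.27, 7.82, 6.24 and 6.44 on day 1 and 7.35, 7.07, 6.26 and 6.50 on day 2, with baboons 1 and 2 above H0 and baboons 3 and 4 within its range on both days. Those changes were 0.88 (adjusted p = 0.0783) and 0.73 (adjusted p = 0.42).

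PSAP codes for prosaposin, the precursor of the saposins, which present glycolipids to their hydrolases. Its H0 levels were 5.96, 6.79, 7.03, 7.02 and 6.0, and its H2-3 levels 8.00, 7.78, 7.77, 8.16 and 8.52 on day 1 and 7.49, 7.66, 7.47, 8.20 and 7.87 on day 2. All H2-3 arrays exceeded H0, and the changes were 1.49 ± 0.27 (adjusted p = 0.000534) and 1.18 ± 0.27 (adjusted p = 0.0112). The second PSAP probe changed by 1.27 and 1.15, with adjusted p over all probes of 0.011 and 0.036. In H1-2, PSAP read 7.80, 7.71, 7.17 and 7.11 on day 1, all above H0, but the change of 0.89 ± 0.29 (adjusted p = 0.0573) missed the threshold. On day 2 the arrays read 7.64, 7.73, 6.54 and 6.72 (0.60 (adjusted p = 0.475)), and baboons 3 and 4 were within the H0 range.

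PPT1 codes for palmitoyl-protein thioesterase 1, which removes fatty acids from proteins. The arrays read 5.65, 6.87, 7.01, 6.27 and 6.25 in H0, 7.29, 7.57, 7.61, 7.93 and 7.93 in H2-3 on day 1 and 7.0, 7.66, 7.01, 8.08 and 7.85 on day 2. Day 1 did not overlap H0, and on day 2 baboon 1 lay just under the highest H0 array. The changes were 1.26 ± 0.28 (adjusted p = 0.00222) and 1.11 ± 0.28 (adjusted p = 0.0155), and the second PPT1 probe changed by 1.51 and 1.39. In H1-2 the values 7.43, 7.56, 6.57 and 7.01 on day 1 and 7.33, 7.18, 6.59 and 6.41 on day 2 overlapped H0, with changes of 0.73 (adjusted p = 0.115) and 0.47 (adjusted p = 0.569).

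GM2A codes for the GM2 activator, a cofactor of beta-hexosaminidase in ganglioside breakdown. It was at 4.02, 4.48, 5.03, 4.10 and 4.30 in H0. The H2-3 arrays were all higher, at 5.86, 5.07, 5.09, 5.28 and 5.94 on day 1 (1.06 ± 0.25 (adjusted p = 0.00338)) and 5.19, 5.21, 5.23, 5.37 and 5.43 on day 2 (0.90 ± 0.25 (adjusted p = 0.0234)). H1-2 arrays were at 5.24, 5.57, 4.47 and 4.50 and 5.06, 5.29, 4.39 and 4.61, again with baboons 1 and 2 above H0 and baboons 3 and 4 within it (0.56 (adjusted p = 0.181) and 0.45 (adjusted p = 0.544)). By a second GM2A probe the H2-3 changes were 0.53 and 0.44, and neither passed the test (adjusted p over all probes 0.0667 and 0.145). ASAH1, the acid ceramidase, rose in H2-3 on day 1 by 1.15 ± 0.35 (adjusted p = 0.0176) and changed by 1.02 (adjusted p = 0.0536) on day 2. NPC1, the cholesterol transporter of the lysosomal membrane, rose in H2-3 on day 2 by 0.90 ± 0.29 (adjusted p = 0.0427), and its day 1 change was 0.76 (adjusted p = 0.0562). The NPC1 call was lost in 14 of 23 alternatives, with adjusted p up to 0.226. SMPD1, the acid sphingomyelinase, was called nowhere, with changes from 0.00 to 0.35.

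All 5 membrane or associated members rose in H2-3 on each day, beside 15% and 10.3% of all genes. In H1-2, 3 rose on day 1 and 0 on day 2, beside 4.18% and 0%. GRN codes for progranulin, a secreted and lysosomal protein that is cut into granulins, and its probe lies at chr17:42430410-42430469 on the plus strand. Its levels were 8.47, 9.52, 10.03, 9.38 and 8.68 in H0 and 10.77, 10.68, 10.53, 11.02 and 11.30 in H2-3 on day 1. This is a change of 1.64 ± 0.28 (adjusted p = 0.00028) or 3.12-fold. On day 2 they were 10.70, 10.73, 10.41, 11.29 and 11.09, a change of 1.62 ± 0.28 (adjusted p = 0.00507) or 3.08-fold, the largest of any member on that day. In H1-2 the arrays read 10.84, 10.92, 10.21 and 10.30 on day 1 (1.35 ± 0.29 (adjusted p = 0.0148), or 2.55-fold) and 10.38, 10.59, 9.91 and 9.55 on day 2 (0.89 (adjusted p = 0.356)). All H2-3 arrays and all H1-2 day 1 arrays exceeded H0, while baboons 3 and 4 of H1-2 were within the H0 range on day 2.

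TCIRG1 codes for a membrane subunit of the proton pump, the V-ATPase, and serves in phagocytes and osteoclasts. H0 arrays gave 5.26, 5.82, 6.64, 6.24 and 5.36. The H2-3 arrays gave 7.0, 6.82, 6.60, 7.04 and 7.29 on day 1 and 7.08, 6.75, 6.62, 7.37 and 7.45 on day 2. Its changes were 1.09 ± 0.26 (adjusted p = 0.00357) and 1.19 ± 0.26 (adjusted p = 0.00902), and 1 array of each day lay just below the highest H0 array. In H1-2 the values were 7.08, 6.88, 6.88 and 6.63 on day 1 (1.00 (adjusted p = 0.0305)) and 6.30, 6.93, 5.78 and 6.01 on day 2 (0.39 (adjusted p = 0.604)), lower on day 2 in baboons 1, 3 and 4.

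LAMP2 codes for a major glycoprotein of the lysosomal membrane. It is spliced into 3 forms that differ in their tail: LAMP2A, which serves chaperone-mediated autophagy, LAMP2B and LAMP2C. The files assign its 3 probes to the transcripts NM_001122606 (LAMP2C), NM_013995 (LAMP2B) and NM_002294 (LAMP2A), in the order printed. Their first 30 bases are shown because they let the forms be read apart as far as each probe is specific to its own, which was not tested.
LAMP2 probe A_33_P3410409 (chrX:119575586-119575645, strand -): ataaatacctttgatctaagggttcagcct
LAMP2 probe A_23_P416608 (chrX:119571194-119571253, strand -): tgcctcccattcactagaaaatgagaaaat
LAMP2 probe A_24_P396231 (chrX:119560073-119560132, strand -): ggatgtatcgatttagagaaccaattaata
The LAMP2C probe, the brightest, stood for the gene and read 3.38, 4.76, 5.26, 4.42 and 4.24 in H0, 5.69, 5.40, 5.45, 5.70 and 5.80 in H2-3 on day 1 and 5.66, 5.38, 5.36, 6.20 and 6.04 on day 2. All H2-3 arrays lay above H0, though the lowest of each day by no more than 0.14, and the changes were 1.19 ± 0.29 (adjusted p = 0.00411) and 1.32 ± 0.29 (adjusted p = 0.00933). In H1-2 it read 6.06, 5.66, 5.38 and 5.45 on day 1 (1.23 (adjusted p = 0.0221)), above H0, and 5.58, 5.47, 4.63 and 4.41 on day 2 (0.61 (adjusted p = 0.487)), overlapping H0. The LAMP2B probe changed by 1.11 and 1.28 in H2-3 on days 1 and 2, with adjusted p over all probes of 0.0302 and 0.0277. For the LAMP2A probe these were 1.08 and 1.48, with 0.0421 and 0.0193. In H1-2 on day 1 the LAMP2B and LAMP2A probes changed by 1.02 and 1.00 and did not pass (0.101 and 0.123). H0 baboon 1 was the lowest of the 23 arrays by all 3 probes.

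LAMP1, the companion glycoprotein of the membrane, read 6.45, 6.86, 7.43, 7.16 and 6.85 in H0. It rose to 7.70, 7.36, 7.89, 7.72 and 8.11 in H2-3 on day 1 (0.81 ± 0.24 (adjusted p = 0.0144)) and 7.59, 7.54, 7.46, 8.04 and 8.16 on day 2 (0.81 ± 0.24 (adjusted p = 0.0289)). Only baboon 2 on day 1 fell within the H0 range. In H1-2 it was at 7.81, 7.93, 6.92 and 7.17 and 7.67, 7.66, 6.96 and 7.0, where baboons 1 and 2 exceeded H0 and baboons 3 and 4 did not (0.51 (adjusted p = 0.201) and 0.37 (adjusted p = 0.59)). SCARB2, also called LIMP-2, which carries beta-glucocerebrosidase to the lysosome, rose in H2-3 by 0.87 ± 0.32 (adjusted p = 0.045) and 0.97 ± 0.32 (adjusted p = 0.0433). Both SCARB2 calls lay close to the threshold: 18 of 23 alternatives ended that of day 1, with adjusted p up to 0.5, and 16 of 23 that of day 2, up to 0.155, with no change of direction.

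**Figure D2:**
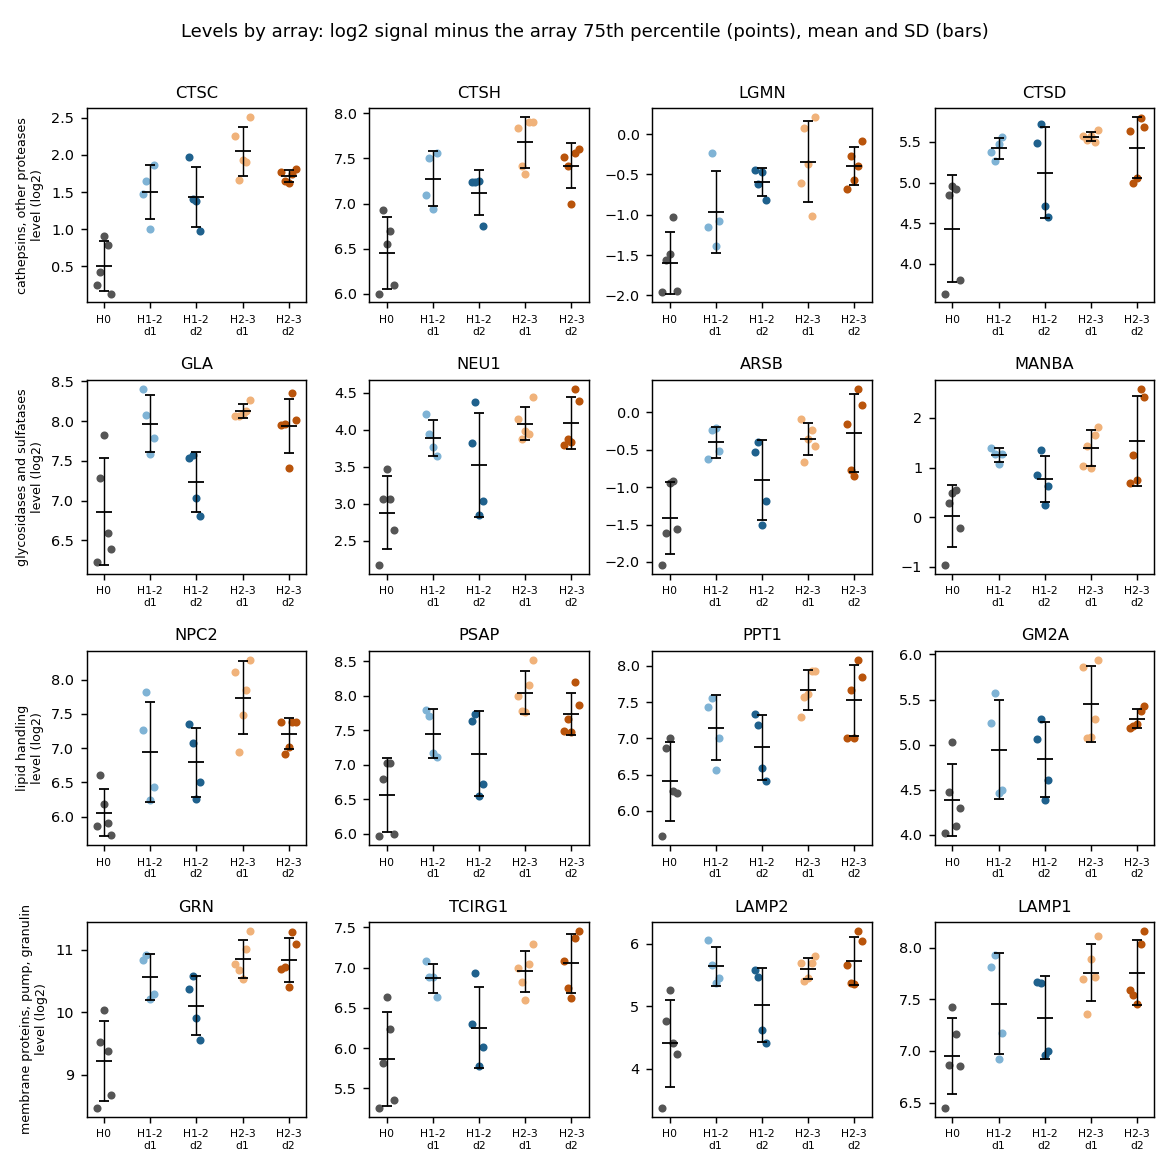
Level on each array (points, log2 signal minus the array's 75th percentile) with group mean and SD (bars) for the 4 members of each role, in rows, with the smallest adjusted p against H0; the y axes differ between panels. The H2-3 points lie above nearly all H0 points, and H1-2 splits into a higher and a lower pair of baboons in several panels, such as NPC2, GM2A and LAMP1.

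The question of the study, an early reading of the later HARS category, turns on H2-3 against H1-2. No member passed that test on day 1 or day 2, and neither did any other gene (0% of all genes called on each day). On day 1 the median member difference, H2-3 minus H1-2, was 0.28, positive for 30 of 32 (56.2% of all genes), with 3 members at an unadjusted p under 0.05 (5.79% of all genes): NPC2 (0.79, adjusted p = 0.648), LGMN (0.62, 0.701) and CTSC (0.55, 0.676). On day 2 the median was 0.54, again positive for 30 of 32 (51.8% of all genes), and 9 members had an unadjusted p under 0.05, beside 9.76% of all genes. The largest of these was TCIRG1 (0.80, adjusted p = 0.508). No member separated the 2 categories without overlap on either day, where 0.989% and 0.568% of all genes were higher in H2-3 without overlap. The category difference was uneven over slides. Within slide 4 (baboons 1 and 2 of H1-2, 2 and 3 of H2-3) the median on day 1 was -0.14, and within slide 5 (baboons 3 and 4 of H1-2, 4 and 5 of H2-3) it was 0.66. On day 2 it was -0.09 within slide 6 (baboons 1 and 2 of H1-2, 1 to 3 of H2-3) and 1.12 within slide 7 (baboons 3 and 4 of H1-2, 4 and 5 of H2-3).

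From day 1 to day 2 no member passed the test in either category. In H1-2, 1 member was lower on day 2 without overlap, beside 1135 of 21130 genes. In H1-2 the median difference, day 2 minus day 1, was -0.23, positive for 6 of 32 (44.9% of all genes), with 3 members at an unadjusted p under 0.05, beside 23.5% of all genes, and 0% of all genes called. In H2-3 it was -0.01, positive for 16 of 32 (47.8% of all genes), with 0 members at an unadjusted p under 0.05, beside 26.6% of all genes, while 2.97% of all genes were called. Within single baboons the median over members, day 2 minus day 1, was -0.16, -0.18, -0.45 and -0.35 in H1-2 baboons 1 to 4, and -0.15, 0.00, -0.22, 0.31 and -0.07 in H2-3 baboons 1 to 5. Over all genes these medians were -0.13, -0.06, -0.02 and -0.11 in H1-2 and -0.01, -0.01, -0.13, 0.12 and -0.02 in H2-3, so in H1-2 baboon 1 the members moved about as much as all genes. In H2-3 baboon 4, 25 of 32 members were higher on day 2. The test of whether the 2 categories changed differently between the days gave 0 members, with 0 at an unadjusted p under 0.05 (1.99% of all genes), and 0% of all genes. Day 2 and scan day 3 cannot be told apart in these differences.

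The pattern of the members differed between arrays of the same group. The median difference of the 32 members from their H0 means was -0.58, 0.21, 0.47, 0.14 and -0.18 in H0 baboons 1 to 5. It was 1.14, 0.95, 0.98, 0.87 and 1.26 in H2-3 on day 1 and 0.91, 0.87, 0.76, 1.23 and 1.28 on day 2, above every H0 array. H1-2 arrays were at 1.06, 1.15, 0.19 and 0.45 on day 1 and 0.93, 0.95, -0.01 and 0.14 on day 2. Baboons 1 and 2 of H1-2 thus lay in the H2-3 range on both days, and baboons 3 and 4 within that of H0. Of the 32 members, 24 to 28 exceeded every H0 array in H1-2 baboons 1 and 2, and 3 to 11 did so in baboons 3 and 4. Over all genes the share was 19.7% to 27.1% in baboons 1 and 2 and 13.1% to 20% in baboons 3 and 4, so that the 3 and 4 members of baboons 3 and 4 on day 2 lay below the share of all genes (13.1% and 15.2%). The latter were alone with H2-3 baboons 4 and 5 on slides 5 and 7, and those H2-3 arrays were at 0.87 to 1.28. H1-2 baboons 1 and 2 lay on slides 4 and 6, so animal and slide cannot be told apart in this split. The same 4 H1-2 animals split in their B cell markers, with median differences from H0 of -1.06, -2.20, 0.58 and 0.02 on day 1 and -2.26, -1.73, 0.47 and 0.79 on day 2.

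**Figure D3:**
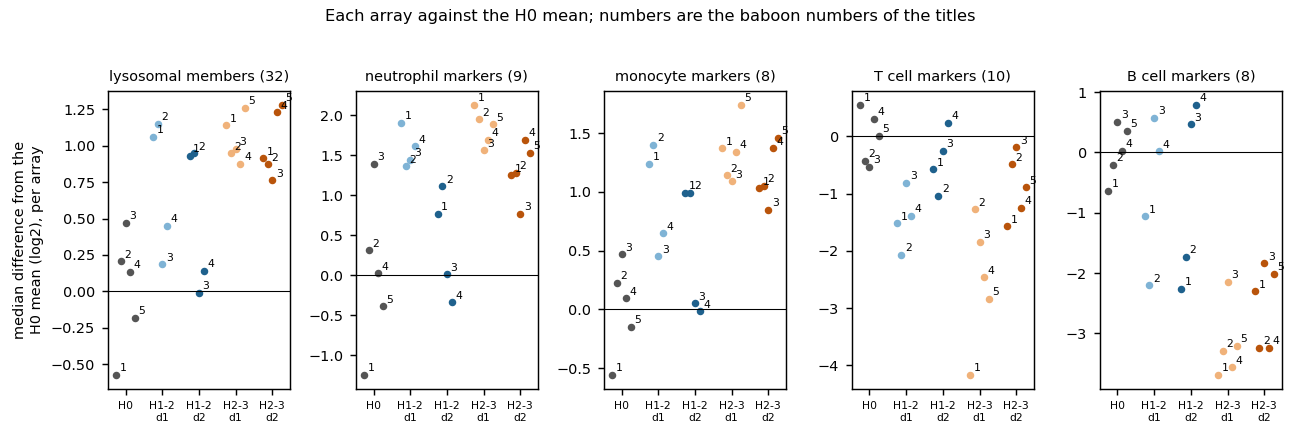
Median difference from the H0 mean on each array (y axis, log2) for the members and for markers of 4 blood cell types, by group (x axis); the numbers are the baboon numbers of the titles, which name animals separately in each category. H2-3 members lie between 0.76 and 1.28, and H1-2 baboons 3 and 4 between -0.01 and 0.45.

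Markers of phagocytes were higher in irradiated blood as well. Monocyte marker medians ran closer to the member medians over the arrays than neutrophil marker medians did. In H1-2 baboons 1 to 4 on day 1 the member medians were 1.06, 1.15, 0.19 and 0.45. The neutrophil marker medians of these arrays were 1.91, 1.36, 1.44 and 1.61, without that split. Their monocyte marker medians, 1.24, 1.40, 0.45 and 0.65, did split. On day 2 the member medians of H1-2 baboons 1 to 4 were 0.93, 0.95, -0.01 and 0.14, and both marker sets split with them. The neutrophil marker medians were then 0.77, 1.11, 0.01 and -0.34, and the monocyte marker medians 0.99, 0.99, 0.05 and -0.02. In whole blood a change in the number of cells of a type and a change in RNA per cell cannot be told apart. Beside the marker counts, 4.18% and 0% of all genes were called higher in H1-2 on days 1 and 2, and 4.42% and 0% lower. In H2-3 these shares were 15% and 10.3% higher, and 13.5% and 4.48% lower. Neutrophil markers rose for 8 of 9 in H1-2 on day 1, 0 on day 2, 9 in H2-3 on day 1 and 5 on day 2, with median changes of 1.67, 0.55, 1.86 and 1.43. Their summed level (linear signal over the array's 75th percentile) was 339 to 1710 in H0, 1690 to 2550 and 715 to 1670 in H1-2 on days 1 and 2, and 1760 to 2740 and 1410 to 2470 in H2-3. Monocyte markers rose for 3, 0, 7 and 6 of 8, with medians of 0.88, 0.56, 1.40 and 1.13. Their sums were 676 to 1230 in H0, 1380 to 1970 and 906 to 1660 in H1-2, and 1890 to 2630 and 1410 to 2310 in H2-3. Macrophage markers rose for 2, 0, 6 and 4 of 6, from sums of 2.45 to 9.23 in H0 to 13.9 to 33.9 in H2-3 on day 1. Only 2 to 4 of these 6 were well above background on a given H0 array, and MARCO was so on 0 of 5. Some of their H0 levels are thus background, and MARCO passed the filter through the irradiated groups alone. T cell markers fell for 5, 0, 9 and 2 of 10, NK and cytotoxic markers for 6, 0, 8 and 2 of 9, and B cell markers for 0, 0, 7 and 8 of 8. T cell sums were 208 to 410 in H0 and 20.4 to 112 in H2-3 on day 1, and B cell sums 200 to 318 and 58.4 to 188. From day 1 to day 2 in H2-3, 7 of 10 T cell markers rose again, while 0 members and 0 of 9 neutrophil markers were called. The neutrophil marker medians of the H2-3 arrays averaged 1.84 on day 1 and 1.30 on day 2, the monocyte marker medians 1.34 and 1.15, and the member medians 1.04 and 1.01. Within H0 the neutrophil marker median was lowest in baboon 1 (-1.25) and highest in baboon 3 (1.39), the animals with the lowest and highest member medians. The monocyte marker median was lowest and highest in the same animals (-0.56 and 0.47). All 9 neutrophil and all 8 monocyte markers tested were well above background on every array; FCGR3B, LYZ and FCGR1A, which also mark these cells, were not analysed here. Platelet markers rose for 0, 0, 1 and 4 of 7 in the same order and eosinophil and basophil markers for 0, 0, 1 and 1 of 6, while 0 of 7 erythroid markers were called in any of these comparisons. The part of these cell types in the members' changes was not tested.

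CTSB and CTSS followed baboon and slide in all irradiated groups, and CTSZ did so in all but H2-3 on day 2. CTSB read 1.70, 1.59, 1.70, -0.04 and -0.05 in H2-3 baboons 1 to 5 on day 1 and 1.25, 1.44, 1.68, -0.49 and -0.18 on day 2. In H1-2 baboons 1 to 4 it read 1.99, 1.70, -0.85 and -0.58 on day 1 and 1.76, 1.47, -1.28 and -1.24 on day 2. On both days the low arrays were those of H1-2 baboons 3 and 4 and H2-3 baboons 4 and 5, which share slides 5 and 7. H0 levels of CTSB were 0.04, 0.25, -0.92, -1.82 and 0.08, lowest in baboons 3 and 4 on slide 2. CTSS read -0.41, -1.47, -0.81, -4.02 and -4.01 in H2-3 on day 1 and -1.31, -1.69, -3.76 and -4.13 in H1-2, with the same 4 animals low, and it was well above background on 13 of 23 arrays, so its low values are near background. CTSZ read 0.98, 1.70, 1.07, -0.11 and 0.09 and 1.21, 1.05, -0.86 and 0.03 in these groups, and with slide as a block its H2-3 day 1 change was 0.70 (adjusted p = 0.684). In H2-3 on day 2 CTSZ read 1.68, -0.11, 0.22, -0.39 and -0.36. There baboons 2 and 3 lay nearer to the slide 7 arrays than to baboon 1 of their own slide. For GRN, by contrast, H2-3 baboons 4 and 5 were the highest of their group on both days. Animal and slide cannot be told apart for these 3 genes. The same holds for every other gene that splits H1-2 baboons 1 and 2 from baboons 3 and 4, since those pairs shared no slide.

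**Figure D4:**
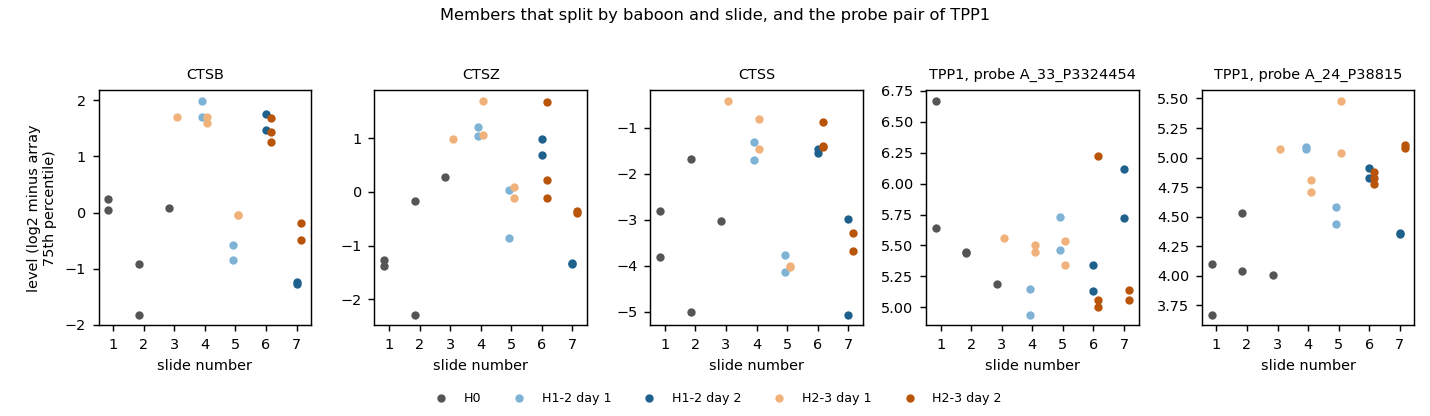
Level (y axis, log2 minus the array's 75th percentile) by slide number (x axis) for CTSB, CTSZ and CTSS and for the 2 TPP1 probes, with points coloured by group. CTSB and CTSS points of slides 5 and 7 lie below those of slides 4 and 6, and the TPP1 probes order the groups differently.

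Other genes of the pathway, 84 listed and 80 tested, were tested in the same way. For comparison, 4.18% and 0% of all genes were called higher in H1-2 on days 1 and 2, and 4.42% and 0% lower. In H2-3 these shares were 15% and 10.3% higher, and 13.5% and 4.48% lower. Of V-ATPase subunits, which with TCIRG1 form the proton pump, 4 of 15 rose in H1-2 on day 1, 0 on day 2, 12 in H2-3 on day 1 and 8 on day 2, and 0 fell. ATP6V0D1 and ATP6V0B, subunits of its membrane part, changed by 1.61 ± 0.26 (adjusted p = 0.000185) and 1.53 ± 0.28 (0.000475) in H2-3 on day 1, and by 1.40 (0.0141) and 1.44 (0.0141) in H1-2. Of 17 other membrane proteins, 2, 0, 7 and 7 rose in the same order, and 1 fell in H2-3 on day 1. LAPTM5, a lysosomal membrane protein of blood cells, and CD68, the macrosialin of phagocytes, rose in H2-3 on day 1 by 1.22 ± 0.21 (0.000345) and 1.82 ± 0.32 (0.00038). Among 23 other hydrolases 2, 0, 10 and 8 rose, and 1, 0, 1 and 2 fell. CTSF, which codes for cathepsin F, was lower: it fell by 1.82 in H2-3 on day 1 (adjusted p = 0.0001), by 0.96 on day 2 (0.0214) and by 1.23 in H1-2 on day 1 (0.016). DNASE2, the acid DNase, rose in H2-3 by 1.19 ± 0.24 (0.00113) on day 1 and 1.11 (0.00905) on day 2.

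Of 10 genes that tag or sort hydrolases, 2, 0, 3 and 5 rose, and 1 fell in H2-3 on each day. SORT1, the sorting receptor sortilin, rose in H2-3 on day 1 by 1.64 ± 0.34 (adjusted p = 0.00122) and in H1-2 by 1.54 (0.0176), while GGA2, an adaptor for the mannose 6-phosphate receptors, fell by 0.77 (0.00275) in H2-3 on day 1 and by 0.62 (0.0255) on day 2. Among 12 genes of the TFEB family and of the mTORC1 arm, through which cells set lysosomal gene expression, 2, 0, 3 and 2 rose and 1 fell in H2-3 on day 1. With 12 genes, the 3 and 2 of H2-3 are close to the 15% and 10.3% of all genes called higher. RRAGD, a Rag GTPase that brings mTORC1 to the lysosome, rose by 2.13 ± 0.39 (0.0141) in H1-2 on day 1 and by 1.97 ± 0.37 (0.000573) and 2.13 ± 0.37 (0.0052) in H2-3 on days 1 and 2. MITF, a transcription factor of that family, rose by 1.25 ± 0.38 (0.045), 2.12 ± 0.36 (0.000304) and 1.55 ± 0.36 (0.0114) in these groups. Their relatives TFEB and TFE3, chosen after their values were seen, changed by 0.37 (0.238) and 0.10 (0.747) in H2-3 on day 1 and did not pass the test. Of the cystatins, which inhibit cathepsins, 0 of 3 were called; CST7 (cystatin F) and CSTB (cystatin B) changed by 0.62 (0.0937) and 0.30 (0.41) in H2-3 on day 1. In the same comparisons 12, 0, 35 and 30 of all 80 rose and 1, 0, 4 and 3 fell, with median changes of 0.34, 0.24, 0.57 and 0.61 against 0.74, 0.50, 1.11 and 1.09 for the members.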

How the data were processed

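Each array measured 1 blood sample in 1 colour on a human array with 62976 spots. The authors' scanner files hold the intensity of each spot as Agilent Feature Extraction wrote it (version 10.7.3.1, per the submitters' processing notes), background-subtracted; the genome positions are those of build hg19, per the file headers. The authors' deposited value table holds log2 values for 39726 probes, of which 39637 matched. Over the matched probes its columns tracked the matching scanner file with correlations of 0.9982 to 0.9999. Over all deposited probes the median was 4.703 on every array. Direction and log2 scale were thus read from the data, while the exact centring and the choice of probes stay unknown.

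From the scanner files, log2 of the processed signal was taken, spots of 1 probe were averaged, and the array's 75th percentile over 50599 probes was subtracted. The percentile signal ran from 80.95 to 156.4, and 41.4% to 51.3% of probes were well above background; the number of arrays limits the precision. Probes well above background on at least 4 arrays were kept (27215), and the brightest kept probe stood for a gene. All 23 arrays entered 1 limma fit (version 3.58.1, R 4.3.3) of 5 group means, without a block for baboon. Its tests were two-sided, with Benjamini-Hochberg adjustment over 21130 genes and a threshold of 0.05. The fit was tested on simulated data with independent noise for each gene and array. Those data held no effect of slide, scan day or baboon, so the test says nothing about these. This fit did not pair the days, so its tests of day 2 against day 1 treated the arrays of 1 baboon as independent. Only the medians within single baboons and the alternatives with baboon as a block paired days 1 and 2, by the baboon numbers of the titles alone. Deviations of same-numbered arrays from their group means correlated at 0.06 to 0.39 in H1-2 and 0.05 to 0.44 in H2-3. But in 5 of 9 pairs (all 4 of H1-2, and baboon 1 of H2-3) an array of another number correlated more highly, at 0.41 to 0.62 in H1-2. Slides and scan days come from the file headers. Alternatives covered scaling, background, filter, probe choice, blocks, array weights and each array left out.

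The members, the other lysosomal lists and the marker lists were chosen with earlier results of these data known. Members named with a value on every array are up to 4 per role, by the smallest adjusted p against H0; of each other list, the 2 genes with the smallest F test p over the 5 groups are named, besides those said to be chosen later. CTSB, CTSZ, CTSS, TPP1 and ARSA were given single values after these were seen. Of the markers, FCGR3B, LYZ and FCGR1A were not analysed here, and MS4A1, PAX5, PRG2, IL5RA and GP6 did not pass the filter. Sequences are the first 30 bases of a probe as the files print them. Some probe sequences are not reported here.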

Additional observations from a re-analysis of the deposited data

Results flagged for a closer look

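Over the 32 members and 5 groups, 160 sets of values were checked for an array far from the rest of its group, and 3 were found; chance alone marks about 1 in 20. CTSH in H1-2 baboon 4 on day 2 was at 6.75, below the 7.24 to 7.25 of the other H1-2 arrays of that day. SCARB2 in H2-3 baboon 1 on day 2 was at 4.77, below the 5.45 to 5.70 of the others. TPP1, by the probe that stood for the gene, was at 6.22 in H2-3 baboon 1 on day 2, above the 5.00 to 5.14 of the others, and H0 baboon 1 was its other high array, at 6.67.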

How the results depend on the processing

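Of 51 called member changes, 1162 values were computed under alternatives: 897 kept direction and call, 265 kept the direction and lost the call, and 0 reversed. The 11 members called in H1-2 on day 1 became 7 with quantile normalization, 7 with the deposited table, 7 with no filter on dim probes, 0 with slide or scan day as a block, 0 with only the 2 groups compared in the fit and, in an alternative chosen after seeing the data, 0 without both H0 arrays of scan day 1; leaving out 1 array gave 0 to 12. In H1-2 on day 2 the count of 0 became 1 with array weights and was 0 to 0 with 1 array left out. In H2-3 on day 1 the 20 became 2 with slide as a block and 17 to 22 with 1 array left out. In H2-3 on day 2 the 20 became 0 with scan day as a random block and 3 without both H0 arrays of scan day 1 (both chosen after seeing the data), and 11 to 21 with 1 array left out. The causes were not tested. With baboon as a replicate block the counts were 12, 0, 21 and 21, and no count moved by over 1.5 times; the differences between categories and between days gave 0 members in every alternative run. A fixed scan day block could not be fitted for day 2 against H0. CTSS, near background on 10 of 23 arrays, and the 2 members at background set the limits of signal.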
